A study of Mus musculus with 15 samples.

Results

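The bulk tumors and the sorted tumor cells that carried the same knockdown, sh-B7-H3 (1), were compared to describe the RNA that whole tumors held and that sorted cells did not. The libraries were taken by their labels, 3 bulk and 3 sorted, which is 6 of the 15 libraries of the series. This comparison was chosen with earlier results of these data known. Both groups came from 105K cells, a Tsc2-deficient line derived from the kidney tumor of a Tsc2+/− mouse, that stably expressed an shRNA against B7-H3 (Cd276) and had grown under the skin of wild-type C57BL/6J hosts. Per the study's methods the hosts were 6-week-old males, the cells were injected with Matrigel, and the knockdown line was a puromycin-selected pool of transduced cells, not 1 clone. Bulk libraries were made from RNA of whole tumors. Sorted libraries were made from tumors that had been dissociated with enzymes and passed over a magnetic column after incubation with a cocktail against non-tumor cells, so that the unbound cells were kept without any positive marker for tumor cells. The 6 libraries of sh-NC, the non-targeting shRNA in the same cell line and hosts, again 3 bulk and 3 sorted, are given beside the knockdown values where the tissue fractions of control tumors bear on them. The labels number the replicates but do not say that each is a separate mouse, so the p-values measure the spread between these libraries, which may in part be technical.

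A subcutaneous tumor is a mixture of cancer cells and of host cells that the cancer cells recruit. Macrophages clear dead cells and secrete complement and chemokines, T cells and natural killer cells recognise and kill targets, endothelial cells and the mural cells around them form vessels, and fibroblasts lay down collagen. Sorting by depletion removes cells that carry leukocyte, endothelial or stromal surface markers, and the enzymes and warmth used to free the cells are known to switch on stress genes such as Fos in many cell types. A difference between bulk and sorted RNA therefore holds both the cells removed and what the handling does to the cells kept, and the design cannot separate them. In bulk RNA, fewer cells of a type and less RNA per cell cannot be told apart.

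Values are FPKM, fragments scaled by transcript length and by library size, that were divided by a library factor and are called scaled FPKM below. Gene symbols are written in capitals, as deposited. Differences are bulk minus sorted on the log2(scaled FPKM + 1) scale, which understates the change of genes with low values. Read totals are not in the files, and the spacing of the lowest values gave only relative depths. Taking sorted sh-NC replicate 1 as the unit, they were 0.604, 0.920 and 0.468 in the bulk libraries and 0.658, 0.858 and 0.930 in the sorted ones. MIR6236, a short RNA gene, held 17.2%, 74.4% and 19.8% of the FPKM of the bulk libraries. It held 7.87%, 7.60% and 6.01% of the sorted ones, so bulk replicate 2 stood apart among the knockdown libraries. In sh-NC it held 30.0%, 41.6% and 79.7% of the bulk and 9.43%, 51.6% and 6.24% of the sorted libraries, so high shares occurred there too. Over the 11677 genes tested, which are not independent points, Pearson's r between replicates was 0.928 to 0.972 in bulk and 0.982 to 0.987 in sorted libraries.

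The macrophage and fibroblast markers had the most members higher in bulk tumors of any list, and the ribosomal protein genes the most members lower. The 250 bases before a RefSeq transcript start on GRCm38.p6, the build of the files, are shown for those of their defining genes that the promoter sequences used here covered, to place these genes on the genome. They lie at chr11:69666171-69666420 (minus strand) for CD68 and chr2:14229164-14229413 (plus) for MRC1, both macrophage genes, at chr6:4505368-4505617 (plus) for COL1A2 and chr5:75152001-75152250 (plus) for PDGFRA, both fibroblast genes, where the start used for PDGFRA lies inside the gene, downstream of its first annotated base, and at chr5:115559217-115559466 (plus) for RPLP0 and chr4:86857368-86857617 (minus) for RPS6, both ribosomal. Capitals mark GAGGAA, a core that the myeloid factor PU.1 binds, CCAAT, and CGGAAG, the core of many ETS factor sites, read on either strand.
CD68: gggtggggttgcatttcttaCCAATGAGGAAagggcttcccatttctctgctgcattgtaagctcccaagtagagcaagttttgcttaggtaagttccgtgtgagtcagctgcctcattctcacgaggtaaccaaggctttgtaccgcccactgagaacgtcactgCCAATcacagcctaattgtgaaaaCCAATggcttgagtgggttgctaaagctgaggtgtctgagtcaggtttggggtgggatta
MRC1: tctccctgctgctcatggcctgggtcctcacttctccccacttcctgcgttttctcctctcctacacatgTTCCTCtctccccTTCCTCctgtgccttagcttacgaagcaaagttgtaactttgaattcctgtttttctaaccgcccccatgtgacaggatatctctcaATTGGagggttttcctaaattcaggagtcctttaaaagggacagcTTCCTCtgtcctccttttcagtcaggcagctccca
COL1A2: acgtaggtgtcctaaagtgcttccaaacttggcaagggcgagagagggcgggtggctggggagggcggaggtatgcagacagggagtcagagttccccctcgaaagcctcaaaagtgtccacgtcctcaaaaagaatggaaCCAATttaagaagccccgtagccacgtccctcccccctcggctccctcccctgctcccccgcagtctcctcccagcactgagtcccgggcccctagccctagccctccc
PDGFRA: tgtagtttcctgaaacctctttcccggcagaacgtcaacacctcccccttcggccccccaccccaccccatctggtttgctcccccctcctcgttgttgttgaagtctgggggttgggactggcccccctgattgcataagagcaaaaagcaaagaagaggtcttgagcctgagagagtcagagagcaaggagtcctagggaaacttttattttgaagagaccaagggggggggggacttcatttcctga
RPLP0: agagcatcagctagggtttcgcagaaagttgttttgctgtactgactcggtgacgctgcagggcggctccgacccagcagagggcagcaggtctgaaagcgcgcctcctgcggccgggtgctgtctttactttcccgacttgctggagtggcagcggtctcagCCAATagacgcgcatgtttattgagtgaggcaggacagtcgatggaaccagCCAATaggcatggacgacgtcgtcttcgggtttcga
RPS6: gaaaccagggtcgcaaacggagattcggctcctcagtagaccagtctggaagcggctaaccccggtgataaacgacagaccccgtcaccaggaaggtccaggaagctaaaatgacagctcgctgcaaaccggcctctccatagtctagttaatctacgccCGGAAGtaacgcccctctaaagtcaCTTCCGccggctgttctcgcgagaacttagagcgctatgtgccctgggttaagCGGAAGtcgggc
GAGGAA occurred 1 time before CD68 and 3 times before MRC1, and did not occur in the other 4 windows. CCAAT occurred 3 times before CD68, where 1 copy runs directly into the GAGGAA, 1 time before MRC1 and before COL1A2, and 2 times before RPLP0. CGGAAG occurred only before RPS6 among these 6 windows, 3 times. Of all 32851 promoters of that length in the table, 23.3% held GAGGAA, 33.8% held CCAAT and 13.6% held CGGAAG. The match is to letters only and is no evidence of binding.

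Of 24891 genes, 11677 had at least 1 scaled FPKM in 3 or more of the 6 libraries and were tested with limma. At an adjusted p under 0.05, 4464 genes (38.2%) differed, of which 2464 (21.1% of those tested) were higher in bulk tumors and 2000 (17.1%) were lower. Those shares, 21.1% and 17.1%, are the background for each knockdown list count below. The median log2 difference of all tested genes was 0.03. The tail was uneven, with 601 genes higher and 151 lower by more than 1 on the log2 scale, and 84 higher and 9 lower by more than 3. The split depended on scaling, since FPKM as deposited gave 898 higher and 3035 lower genes with a median of -0.23, quantile normalization gave 1772 and 2243, and upper-quartile factors gave 3021 and 1480. The count was 2332 without bulk replicate 1, 2671 without sorted replicate 1 and 4278 without bulk replicate 2, the knockdown library rich in MIR6236. Of 18095 genes above 0 in at least 1 library, 27.8% had all bulk libraries above all sorted ones.

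The 10 genes with the largest positive differences were C1QB, C1QA, LYZ2, C1QC, FCER1G, LAPTM5, TYROBP, CD52, APOE and COL1A1. Of these, 9 are genes that macrophages express strongly, and COL1A1, the main chain of type I collagen, is a fibroblast gene. C1QA, C1QB and C1QC, the chains of complement C1q, lie next to each other on chromosome 4. C1QB was at 261, 305 and 167 scaled FPKM in the bulk libraries and at 2.34, 2.33 and 2.46 in the sorted ones (log2 difference 6.14, standard error 0.21, limma adjusted p = 4.22e-06). The means were 244 ± 70.5 scaled FPKM (SD, n = 3) and 2.37 ± 0.0729 scaled FPKM (SD, n = 3), a 103-fold difference on the linear scale. Lysozyme 2 (LYZ2), a secreted antibacterial enzyme, was at 232, 446 and 297 in bulk and 3.40, 3.45 and 3.81 in sorted libraries (log2 difference 6.11, limma adjusted p = 5.52e-06). For both genes every bulk library lay far above every sorted one, and bulk replicate 3 was the lowest bulk library for C1QB but not for LYZ2. APOE, the lipid carrier apolipoprotein E, was at 1404, 1380.2 and 841 in bulk and still at 35.0, 52.0 and 33.5 in sorted cells (log2 difference 4.87, limma adjusted p = 2.17e-05). The remaining FCER1G, TYROBP, LAPTM5 and CD52 encode a shared Fc receptor chain, a receptor adapter, a lysosomal membrane protein and a surface glycopeptide of leukocytes, and their log2 differences were 5.92, 5.23, 5.31 and 4.97.

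**Figure D1:**
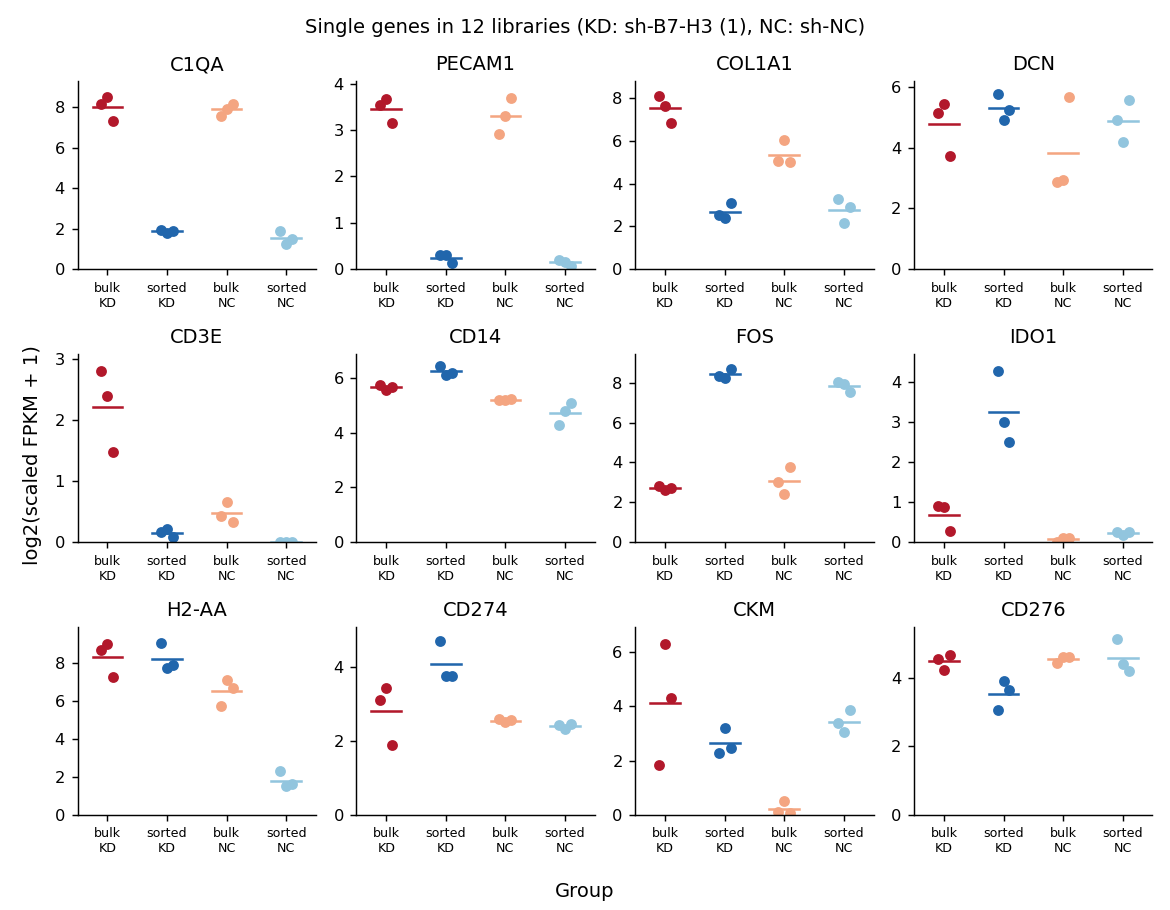
Level of 12 genes on the vertical axis as log2(scaled FPKM + 1) in each of 12 libraries, with bulk and sorted libraries of sh-NC and of sh-B7-H3 (1) side by side, points for libraries and lines for group means. C1QA, PECAM1 and COL1A1 sit high in bulk sh-B7-H3 (1) tumors and low in sorted cells, FOS and IDO1 sit lower in bulk, and H2-AA overlaps between both sh-B7-H3 (1) groups.

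Leukocyte markers as a whole were higher in bulk. Of 14 markers in the table, all 14 passed the filter, 13 were higher and 1, CYTIP, was lower, beside 21.1% and 17.1% of all genes tested. When 1 scaled FPKM was required in every library, 3 were higher and 1 lower, since many passed through bulk alone. The median difference over all 14 markers was 2.88. Their summed level was 399, 482 and 249.7 scaled FPKM in bulk and 28.8, 26.0 and 21.5 in sorted libraries, so the sorted cells kept 6.76% of the bulk sum. PTPRC, which encodes CD45, the phosphatase found on nearly every white blood cell, was at 10.1, 11.1 and 5.03 in bulk and at 0.158, 0.142 and 0.158 in sorted libraries (log2 difference 3.01, standard error 0.25, limma adjusted p = 0.000204). CD53, a tetraspanin, and ITGB2, the beta chain of the leukocyte integrins, were higher by 2.28 and 2.84 on the log2 scale. CYTIP, a regulator of integrin adhesion, was at 6.54, 5.86 and 5.44 in bulk and 8.55, 7.83 and 7.12 in sorted cells (log2 difference -0.35, limma adjusted p = 0.0468), a small difference without overlap whose call was lost when any 1 of the 6 libraries was left out (adjusted p up to 0.12).

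Macrophage markers followed the same split, with exceptions. Of 21 listed, 18 passed the filter, 16 were higher in bulk, 1 was lower and 1 did not pass the test, and the median over all 21 was 2.81. Many passed through bulk alone, and 6 were higher and 1 lower when 1 scaled FPKM was required in every library. The sum of the list was 1295, 1712 and 1022 scaled FPKM in bulk and 163, 169 and 149 in sorted libraries, 11.9% of the bulk sum. ADGRE1, the F4/80 antigen of mouse macrophages, was at 13.6, 17.3 and 7.28 in bulk and 0.266, 0.293 and 0.125 in sorted cells (log2 difference 3.41, standard error 0.27, limma adjusted p = 0.000163). The mannose receptor MRC1 was at 5.77, 11.5 and 6.62 in bulk and 0.0566, 0.116 and 0.153 in sorted cells (log2 difference 2.96, limma adjusted p = 0.000127). Both genes were close to 0 in every sorted library. The receptor for macrophage colony-stimulating factor, CSF1R, was at 35.6, 45.1 and 27.5 in bulk and at 4.76, 4.88 and 5.21 in sorted cells (log2 difference 2.61, limma adjusted p = 7.83e-05). CD68, a lysosomal glycoprotein, was at 118, 97.4 and 124 in bulk and 55.7, 83.1 and 56.1 in sorted cells (log2 difference 0.81, limma adjusted p = 0.0128), and this call was lost without sorted replicate 1 (adjusted p = 0.0531) and with FPKM as deposited. CD14, the co-receptor for bacterial lipopolysaccharide, ran the other way, at 52.5, 46.5 and 49.7 in bulk and 86.7, 68.8 and 72.3 in sorted cells (log2 difference -0.60, limma adjusted p = 0.00924), with all sorted libraries above all bulk ones.

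Many monocyte, dendritic cell and granulocyte markers were low, but a few were abundant in both fractions. The monocyte list summed to 287, 344 and 207 scaled FPKM in bulk and 711, 339 and 398 in sorted libraries, 173% of the bulk sum. The neutrophil list summed to 394, 251 and 333 in bulk and 379, 278 and 302 in sorted libraries, most of it LTF. Of 8 monocyte markers, 5 passed the filter, with 2 higher, 1 lower and a median over the list of 0.36, and 1 was higher and none lower without sorted replicate 1 or with quantile normalization. CCR2, the receptor that brings monocytes into tissue, was at 7.52, 12.5 and 7.54 in bulk and 0.0694, 0.0250 and 0.0580 in sorted cells (log2 difference 3.24, standard error 0.19, limma adjusted p = 4.14e-05). LY6C2, a surface protein of inflammatory monocytes, was at 91.5, 119 and 52.9 in bulk and at 227, 111 and 152 in sorted cells, with overlap and a difference that missed the threshold (log2 difference -0.90, limma adjusted p = 0.0689). PLAC8, a small protein of monocytes and of some epithelia, was at 160.3, 113 and 144 in bulk and 467, 194 and 242 in sorted cells (log2 difference -1.02, limma adjusted p = 0.0353, and up to 0.0691 in the 5 fits without 1 library in which the call was lost). Among 11 dendritic cell markers 4 passed the filter and 3 were higher, with a list median of 0.85, and ITGAX, which encodes CD11c, was at 10.6, 12.4 and 6.89 in bulk and 0.155, 0.0279 and 0.109 in sorted cells (log2 difference 3.29, limma adjusted p = 4.68e-05). FLT3, the growth factor receptor of dendritic cells, was listed at 0 in all 3 sorted libraries and at 0.265, 0.680 and 0.0807 in bulk, under the filter. Of 15 neutrophil markers 2 passed, and 1 of them was higher, the gelatinase MMP9 at 3.58, 2.49 and 1.65 in bulk and 0, 0.0380 and 0.0825 in sorted cells (log2 difference 1.75, limma adjusted p = 0.000919), while lactoferrin, LTF, was at 385, 243 and 327 in bulk and 378, 278 and 302 in sorted cells (log2 difference -0.02, limma adjusted p = 0.952). Of 10 mast cell markers, 2 passed the filter and neither was called. No dendritic cell or neutrophil marker was called when 1 scaled FPKM was required in every library. Of the monocyte markers 0 were higher and 1 was lower under that filter, since members such as CCR2 passed the main filter through bulk alone.

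Most T-cell markers were low in bulk knockdown tumors and lower in sorted cells. The list summed to 45.95, 44.9 and 26.2 scaled FPKM in bulk and 13.8, 15.6 and 15.03 in sorted libraries. Sorted cells thus kept 37.9% of the bulk sum, most of it from members not named here. With sh-NC the sorted cells kept 93.8% of the bulk sum. The table held 16 of 19 markers, 4 of them passed the filter and 3 of those were higher, and the median over all 16 was 0.87. Only 1 was called when 1 scaled FPKM was required in every library. All 3 bulk libraries lay above all sorted ones for 14 of the 16, against 27.8% of all genes above 0. CD3E, a chain of the T-cell receptor complex, was at 5.99, 4.26 and 1.78 in bulk and 0.116, 0.158 and 0.0588 in sorted cells (log2 difference 2.07, standard error 0.30, limma adjusted p = 0.00303). CD8A, the co-receptor of killer T cells, was at 1.50, 1.97 and 0.501 in bulk and 0.0371, 0.0772 and 0.0254 in sorted cells, and fell under the filter. Every bulk library lay above every sorted one for both genes. The kinase LCK, which starts signaling below the receptor, was at 2.07, 2.35 and 0.686 in bulk and 1.08, 0.922 and 0.892 in sorted cells (log2 difference 0.40, limma adjusted p = 0.233). LCK overlapped between the groups, and bulk replicate 3 had the lowest bulk level of all 3 genes. In bulk sh-NC tumors CD3E was at 0.340, 0.583 and 0.261 and in sorted sh-NC cells it was listed at 0 in all 3 libraries. The difference of the bulk minus sorted change of CD3E between sh-B7-H3 (1) and sh-NC missed the threshold (log2 1.60, limma adjusted p = 0.0911).

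Genes of T-cell state and killing were low in sorted cells except TNFRSF9, a costimulatory receptor, at 7.50, 6.70 and 9.71 in bulk and 11.7, 8.15 and 7.72 in sorted cells (log2 difference -0.18, limma adjusted p = 0.465), and members that passed the filter through bulk alone had to differ. Of 13 state genes, 6 passed and 5 were higher, with a list median of 0.71, and none of either list was called when 1 scaled FPKM was required in every library. ENTPD1, which encodes CD39, the ectoenzyme that breaks down ATP, was at 6.43, 7.11 and 4.16 in bulk and 0.0990, 0.0351 and 0.0915 in sorted cells (log2 difference 2.66, standard error 0.18, limma adjusted p = 8.39e-05). CD38, an enzyme that consumes NAD, was at 3.13, 3.99 and 2.66 in bulk and 0.811, 0.714 and 0.707 in sorted cells (log2 difference 1.28, limma adjusted p = 0.000785), and LAG3, an inhibitory receptor of T cells, was higher by 1.48 (limma adjusted p = 0.00164). CD39 and CD38 are carried by macrophages and vessels as well as by T cells. Among 14 cytotoxic genes only KLRD1, a receptor of natural killer cells, passed the filter, at 2.31, 2.31 and 1.69 in bulk and 0.0548, 0 and 0 in sorted cells (log2 difference 1.60, limma adjusted p = 0.000201). The granule protein NKG7 was at 3.09, 6.00 and 0.643 in bulk and 0.119, 0.0466 and 0.0404 in sorted cells, and granzyme B, GZMB, was at 0.467, 0.749 and 0.0427 in bulk. The cytokine IFNG was at 0.174, 0.0780 and 0 in bulk and listed at 0 in all sorted libraries. Bulk replicate 3 was the lowest for NKG7, GZMB and IFNG. Of 10 B and plasma cell markers, 1 passed the filter and none was called.

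Endothelial markers were close to 0 in sorted cells. For all 19 listed the bulk libraries lay above the sorted ones, and the median over the list was 1.71. The 15 that passed the filter were called higher in bulk, but they passed it through the bulk libraries, and none was called when 1 scaled FPKM was required in every library. The list summed to 92.5, 103 and 60.3 scaled FPKM in bulk and 2.72, 2.65 and 3.09 in sorted cells, which is 3.31% of the bulk sum. PECAM1 (CD31), the adhesion molecule of vessel lining, was at 10.7, 11.7 and 7.89 in bulk and 0.230, 0.230 and 0.0885 in sorted cells (log2 difference 3.22, standard error 0.16, limma adjusted p = 2.00e-05). CDH5, the cadherin of endothelial junctions, was at 10.3, 10.1 and 7.43 in bulk and 0.0861, 0.0373 and 0.130 in sorted cells (log2 difference 3.24, limma adjusted p = 1.42e-05). The receptor for vascular endothelial growth factor KDR and the clotting protein VWF were higher by 1.71 and 1.36. In sh-NC tumors 14 of 14 tested members were higher in bulk, where 10.4% of all genes tested were. The list summed to 3.27, 2.90 and 2.56 scaled FPKM in sorted sh-NC libraries. These members too passed the filter largely through bulk, so that count was nearly fixed by the filter. Of 12 mural cell markers, 8 passed the filter and all 8 were higher, with a list median of 1.35 and 26.9% of the bulk sum left after sorting. With 1 scaled FPKM required in every library, 4 were called. RGS5, a regulator of G proteins in pericytes, was at 18.2, 13.6 and 14.9 in bulk and 0.483, 0.167 and 0.233 in sorted cells (log2 difference 3.68, limma adjusted p = 1.07e-05). PDGFRB, the receptor that holds pericytes to vessels, was at 17.6, 24.2 and 11.6 in bulk and 2.74, 6.74 and 9.11 in sorted cells (log2 difference 1.44, limma adjusted p = 0.0229, 0.0637 at most without bulk replicate 1 or sorted replicate 1). ACTA2, smooth muscle actin, was at 110.2, 219.5 and 118 in bulk and 46.0, 53.8 and 49.6 in sorted cells (log2 difference 1.49, limma adjusted p = 0.00493). No lymphatic endothelial marker passed the filter.

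**Figure D2:**
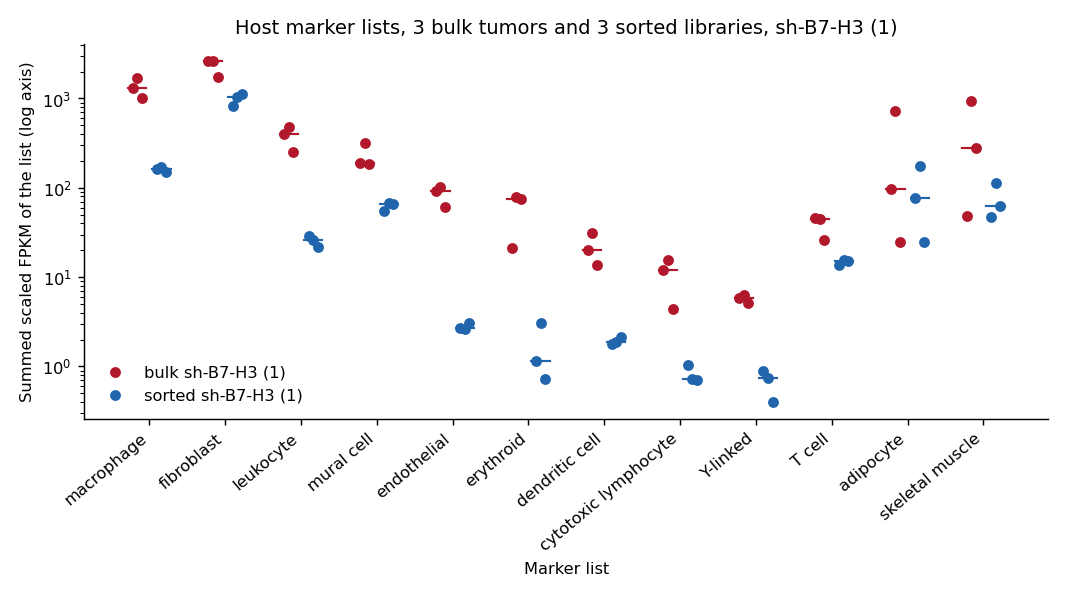
Summed scaled FPKM of 12 host marker lists on a log axis, with 3 bulk and 3 sorted sh-B7-H3 (1) libraries as points and short lines at the median. Endothelial, leukocyte and macrophage sums lie far apart, while adipocyte and skeletal muscle sums overlap between bulk and sorted libraries.

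Fibroblast markers split within the list. Of 23 listed, 21 passed the filter, 16 were higher in bulk and none was lower, the median was 1.74, and 42.7% of the bulk sum was left in sorted cells. COL1A1 was at 271, 198 and 113 in bulk and 4.79, 4.20 and 7.57 in sorted cells (log2 difference 4.85, standard error 0.32, limma adjusted p = 7.83e-05), and COL1A2, the other chain of type I collagen, was at 185, 139 and 73.0 in bulk and 7.54, 4.59 and 9.26 in sorted cells (log2 difference 3.98, limma adjusted p = 0.000266). Decorin, DCN, a small proteoglycan that binds collagen fibrils, was at 34.8, 42.8 and 12.1 in bulk and 53.4, 29.1 and 37.4 in sorted cells, so that the groups overlapped (log2 difference -0.54, limma adjusted p = 0.352). PI16, a marker of resting connective tissue fibroblasts, was at 1.45, 4.30 and 0.902 in bulk and 6.95, 3.25 and 10.1 in sorted cells (log2 difference -1.31, limma adjusted p = 0.0504). Both type I collagen genes were thus lower after sorting, while DCN and PI16 had higher means in sorted cells and missed the threshold. PDGFRA, the growth factor receptor of fibroblasts, was at 2.13, 1.69 and 0.700 in bulk and 0.579, 0.409 and 0.613 in sorted cells, under the filter. In sh-NC tumors 8 members were higher in bulk and 1 was lower, with a median of 0.32. With FPKM as deposited 3 members were lower in bulk knockdown tumors and 15 higher.

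Some genes of matrix enzymes and of the basement membrane were higher in bulk. Of 15 matrix enzymes and inhibitors 14 passed the filter, 9 were higher and none lower, with a median of 0.81. Of all genes tested, 21.1% were higher and 17.1% lower. MMP2, the gelatinase of stromal cells, was at 24.9, 19.1 and 8.97 in bulk and 3.71, 3.28 and 5.64 in sorted cells (log2 difference 1.76, standard error 0.34, limma adjusted p = 0.00804). MMP14, the membrane protease that activates it, was abundant in both, at 204, 208 and 181 in bulk and 74.6, 111 and 121 in sorted cells (log2 difference 0.97, limma adjusted p = 0.00769). MMP12, the elastase of macrophages, was higher by 2.60, and the inhibitor TIMP1 by 0.49, a call lost without bulk replicate 1 or sorted replicate 1 (adjusted p up to 0.0631) and with FPKM as deposited. Of 17 basement membrane genes 15 passed the filter, 8 were higher and 1 was lower, with a median of 0.55. COL4A1, the common chain of type IV collagen, was at 101, 142 and 94.8 in bulk and 24.4, 45.5 and 64.0 in sorted cells (log2 difference 1.39, limma adjusted p = 0.0150), and the linker nidogen 2, NID2, was higher by 1.95. COL4A5, the chain of the kidney and epithelial network, was at 16.3, 19.5 and 17.2 in bulk and 23.9, 27.9 and 36.2 in sorted cells (log2 difference -0.68, limma adjusted p = 0.0150, 0.0588 without bulk replicate 1).

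Markers of tissues next to the tumor differed widely between bulk libraries. Of 16 skeletal muscle genes 13 passed the filter and 1 was higher, although the median over the list was 1.52. That one, named after its values were seen, was the myosin heavy chain MYH1 (log2 difference 2.63, limma adjusted p = 0.0124, 0.06 without sorted replicate 1). The list summed to 48.7, 933 and 279 scaled FPKM in bulk and 46.7, 114 and 63.3 in sorted libraries, with bulk replicate 1 as low as the sorted ones. Muscle creatine kinase, CKM, was at 2.56, 78.3 and 18.7 in bulk and 3.83, 8.22 and 4.48 in sorted cells (log2 difference 1.50, limma adjusted p = 0.241). Without bulk replicate 1, 11 of the muscle genes were higher, and with a replicate block 9 were. The count was 0 without sorted replicate 1, 4 with FPKM as deposited and 3 with all 5 groups in 1 fit. In sh-NC tumors 9 of 9 tested members were lower in bulk, where 6.48% of all tested genes were lower. The muscle list summed there to 5.31, 27.0 and 7.60 in bulk and 97.5, 75.4 and 134 in sorted libraries. Members could thus pass the filter through sorted cells alone. Of 12 adipocyte genes 8 passed the filter and none was called, with sums of 96.3, 729 and 24.8 in bulk and 77.0, 177 and 24.9 in sorted cells. Without bulk replicate 3, 2 adipocyte genes were higher, and with a replicate block 3 were. The globins HBA-A1 and HBB-BT of red blood cells, which have near-identical copies, were higher in bulk by 4.10 and 3.30. No red blood cell gene was called when 1 scaled FPKM was required in every library. None of the Schwann cell, epidermal or platelet markers was called.

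The hosts were male, and 2 of 4 Y-linked genes passed the filter and were higher in bulk. Neither was called when 1 scaled FPKM was required in every library, since both passed the filter through bulk alone and had to differ. DDX3Y, an RNA helicase, was at 1.63, 2.40 and 1.81 in bulk and 0.187, 0.153 and 0.116 in sorted cells (log2 difference 1.35, standard error 0.14, limma adjusted p = 0.000498), and EIF2S3Y, a translation factor, was higher by 1.48 (limma adjusted p = 0.000275). KDM5D and UTY were under the filter, and all 4 genes had every bulk library above every sorted one. The sum of the 4 was 5.90, 6.26 and 5.12 in bulk and 0.887, 0.750 and 0.404 in sorted libraries, 11.8% of the bulk sum. The sources used here do not give the sex of the mouse that 105K cells came from.

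**Figure D3:**
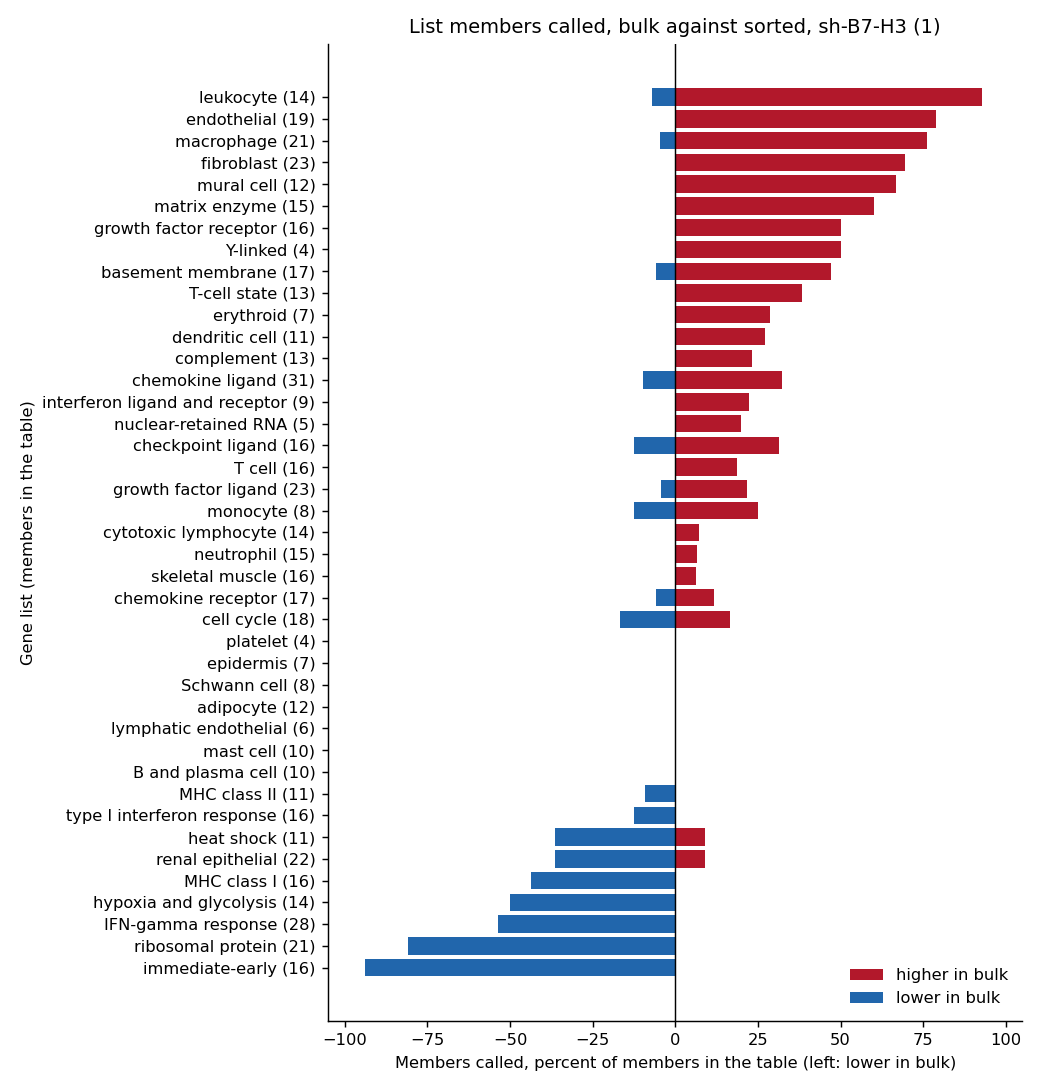
Percent of the members in the table that were called higher in bulk or lower in bulk in sh-B7-H3 (1) tumors, for 41 lists, at a limma adjusted p under 0.05. Leukocyte, endothelial and macrophage lists reach furthest to the higher side, and immediate-early and ribosomal protein lists reach furthest to the lower side.

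The genes most reduced in bulk were led by the immediate-early genes, which cells switch on within minutes of a stimulus. Of 16 in the list all passed the filter, 15 were lower in bulk, none was higher and the median was -2.01, beside 17.1% of all genes lower. FOSB was at 0.318, 0.411 and 0.503 scaled FPKM in bulk and 74.9, 69.3 and 107 in sorted cells (log2 difference -5.88, standard error 0.17, limma adjusted p = 1.79e-06). FOS, the partner of JUN in the AP-1 factor, was at 6.13, 5.10 and 5.56 in bulk and 322, 309 and 417 in sorted cells (log2 difference -5.72, limma adjusted p = 1.10e-06), which is a 62.4-fold higher mean in sorted cells. No bulk library came near a sorted one for either gene. The stress factor ATF3, the phosphatase DUSP1, the zinc finger factor EGR1 and the nuclear receptor NR4A1 differed by -3.67, -3.45, -3.12 and -2.87, and JUN by -1.63. In sh-NC tumors 14 of the 16 were lower in bulk, and the change of FOSB was smaller there (log2 difference -3.63, limma adjusted p = 2.58e-05, with a difference between conditions of -2.25, limma adjusted p = 0.0102). In knockdown tumors the heat shock co-chaperone DNAJB1 was lower in bulk (log2 difference -0.86). Of 11 heat shock genes 4 were lower and 1 was higher, beside 17.1% and 21.1% of all genes tested. That count was 1 lower and 0 higher without bulk replicate 1, 2 lower without sorted replicate 1 or 2, and 2 lower and 2 higher with quantile or upper-quartile scaling. HSPA1A, the inducible chaperone, was at 8.51, 8.30 and 8.63 in bulk and 11.8, 10.3 and 10.5 in sorted cells (log2 difference -0.32, limma adjusted p = 0.0373) and has a near-identical copy, HSPA1B, so its reads may be split, and its call was lost without any 1 library. BAG3, which binds these chaperones, was higher by 0.45, a call lost in 5 of 6 such fits.

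Of the 10 smallest differences 6 belonged to immediate-early genes and 1 to UBD, an interferon-gamma response gene, and the other 3 had values at or near 0 in bulk libraries. MIR762 was listed at 0 in all 3 bulk libraries and at 565, 441 and 383 in sorted cells, and at 459, 0 and 0 in bulk sh-NC tumors. TGOLN2 was at 1.71e-05, 0.000153 and 1.98e-05 in bulk and 30.0, 26.5 and 28.8 in sorted cells. OAZ1-PS, a pseudogene, was at 0.00315, 17.5 and 0.000166 in bulk and 83.9, 43.6 and 89.5 in sorted cells, and its call was lost without sorted replicate 1 (adjusted p = 0.0593). A value at or near 0 in some libraries of a gene with high values in others can be a failed estimate, so no fold is given.

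Interferon-gamma response genes were lower in bulk knockdown tumors than in the sorted cells of such tumors. Of 28 listed, 27 passed the filter, 15 were lower, none was higher and the median was -1.07. For 19 of the 28 all sorted libraries lay above all bulk ones, against 17.6% of all genes above 0. UBD, the ubiquitin-like protein FAT10, was at 5.55, 7.45 and 1.37 in bulk and 79.7, 33.8 and 24.5 in sorted cells (log2 difference -3.03, standard error 0.55, limma adjusted p = 0.00640). IDO1, which degrades tryptophan, was at 0.871, 0.821 and 0.214 in bulk and 18.4, 7.06 and 4.64 in sorted cells (log2 difference -2.58, limma adjusted p = 0.00453). Bulk replicate 3 was the lowest library and sorted replicate 1 the highest for both genes. The ligand of PD-1, CD274, was at 7.52, 9.79 and 2.68 in bulk and 25.0, 12.3 and 12.4 in sorted cells (log2 difference -1.26, limma adjusted p = 0.0477), and this call was lost without bulk replicate 1 or 3 or any sorted replicate (adjusted p up to 0.176). Bulk replicate 3 was again the lowest library. IRF1, a transcription factor that interferon induces, missed the threshold (log2 difference -0.91, limma adjusted p = 0.0725). The count of lower members was 8 without bulk replicate 1, 4 without sorted replicate 1, 9 without sorted replicate 3, 5 without the filter and 24 with FPKM as deposited. With a replicate block 21 were lower and 1 was higher. In sh-NC tumors 4 members were higher in bulk and none lower, with a median of 0.34. No member passed the test of the difference between conditions.

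Part of the MHC class I genes, which present peptides to killer T cells, were lower in bulk, and class II genes, which present to helper T cells, gave almost no calls. Of 16 MHC class I genes all passed the filter, 7 were lower in bulk and none was higher, with a median of -0.74, and 3 were lower without sorted replicate 1 and 11 with FPKM as deposited. PSMB9, a subunit of the immunoproteasome, was at 29.4, 36.2 and 16.8 in bulk and 124, 61.5 and 77.0 in sorted cells (log2 difference -1.64, standard error 0.32, limma adjusted p = 0.00863). The heavy chains H2-K1 and H2-D1 and the light chain B2M had log2 differences of -0.18, -0.42 and -0.29, none past the test. Of 11 MHC class II genes 8 passed the filter and 1 was lower, with a median of 0.02. That count was 3 lower with FPKM as deposited and 2 lower with a replicate block. It was 1 higher and 0 lower without the filter or without bulk replicate 3. None was called without bulk replicate 1 or sorted replicate 1 or 3. H2-AA, the alpha chain of the I-A molecule (chr17:34282744-34287823), was at 408, 525 and 153 in bulk and 542, 216 and 239.5 in sorted cells (log2 difference 0.08, limma adjusted p = 0.914). CD74, the invariant chain, was at 1470.3, 1552 and 471 in bulk and 1988, 1114 and 1223 in sorted cells (log2 difference -0.44, limma adjusted p = 0.464). In both genes the groups overlapped, and bulk replicate 3 was far below the other bulk libraries. H2-DMB2, which helps load peptides, was the member called lower, at 10.4, 12.1 and 6.49 in bulk and 37.6, 15.1 and 16.5 in sorted cells (log2 difference -1.10, limma adjusted p = 0.0409, up to 0.0894 without bulk replicate 1 or 3 or sorted replicate 1 or 3). In sh-NC tumors H2-AA was at 53.1, 138 and 102 in bulk and 3.91, 1.81 and 2.08 in sorted cells (log2 difference 4.72, limma adjusted p = 6.92e-05), and 7 of 7 tested members were higher in bulk, with a median of 1.34. The bulk minus sorted difference of 6 class II members differed between conditions, H2-AA by -4.64 (limma adjusted p = 0.0192).

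Few type I interferon response genes were called in knockdown tumors. Of 16 tested, 2 were lower and none higher, with a median of -0.18. ISG15, a ubiquitin-like protein, was at 30.1, 41.4 and 19.3 in bulk and 60.1, 24.6 and 35.4 in sorted cells (log2 difference -0.36, limma adjusted p = 0.437). IFIT2, which binds foreign RNA, was lower (log2 difference -0.91, limma adjusted p = 0.0462) and lost this call without bulk replicate 1 or 3 or sorted replicate 1 or 3 (adjusted p up to 0.14). Without bulk replicate 3 or sorted replicate 1, and with upper-quartile factors, the count became 1 higher and 0 lower, and it was 0 without bulk replicate 1, without sorted replicate 3 or without the filter, and 6 lower with FPKM as deposited. In sh-NC tumors 13 of 16 were higher in bulk. Of 9 interferon ligands and receptors 7 passed the filter and 2 were higher, TYK2, a kinase below the type I receptor, by 0.58 (limma adjusted p = 0.0162), a call lost without bulk replicate 1 or sorted replicate 1 and with FPKM as deposited, where none of these genes was called. The interferon-gamma receptor chains IFNGR1 and IFNGR2 had log2 differences of 0.19 and 0.12, neither past the test.

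Chemokine ligands moved in both directions. Of 31 listed, 23 passed the filter, 10 were higher in bulk and 3 were lower, with a median of 0.19, and 1 was lower without bulk replicate 1 or sorted replicate 1. With 1 scaled FPKM required in every library, 3 were higher and 1 lower, since members such as CCL12 passed through bulk alone. The shares of all genes tested were 21.1% higher and 17.1% lower. CCL12, which draws monocytes through CCR2, was at 31.2, 31.2 and 12.2 in bulk and 0.659, 0.172 and 0.224 in sorted cells (log2 difference 4.16, standard error 0.34, limma adjusted p = 0.000204). CCL5, a chemokine made by T cells and macrophages, was at 23.8, 29.5 and 5.33 in bulk and 3.57, 4.44 and 2.80 in sorted cells (log2 difference 1.89, limma adjusted p = 0.0278, up to 0.0979 without bulk replicate 1 or sorted replicate 1 or 3). CXCL1, which draws neutrophils, was at 6.69, 2.95 and 9.61 in bulk and 61.1, 26.5 and 26.6 in sorted cells (log2 difference -2.40, limma adjusted p = 0.00601), with every sorted library above every bulk one. The interferon-induced T-cell attractants CXCL9 (log2 difference -1.14, limma adjusted p = 0.0938) and CXCL10 (log2 difference -0.66, limma adjusted p = 0.229) missed the threshold. Bulk replicate 3 held the least CXCL9 of all 6 libraries, with levels of 27.1, 37.6 and 8.91 in bulk and 69.9, 36.4 and 42.5 in sorted cells. Among chemokine receptors, ACKR3, a scavenger of CXCL12, was lower (log2 difference -0.59, limma adjusted p = 0.0356) and lost this call without bulk replicate 1 or 2 or sorted replicate 1 or 3.

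Ligands of immune checkpoints and growth factors were found on both sides. Of 16 checkpoint ligands 12 passed the filter, 5 were higher and 2 lower, with a median of 0.16. Beside this and the lists that follow, 21.1% of all genes tested were higher and 17.1% lower. With 1 scaled FPKM required in every library, 2 checkpoint ligands were higher and 2 lower, since members such as CD86 passed through bulk alone. CD86, which costimulates T cells, was at 5.45, 4.85 and 3.08 in bulk and 0.434, 0.133 and 0.147 in sorted cells (log2 difference 2.12, standard error 0.19, limma adjusted p = 0.000320). VTCN1, the inhibitory relative B7-H4, was at 8.70, 4.96 and 6.32 in bulk and 14.0, 11.6 and 8.49 in sorted cells (log2 difference -0.70, limma adjusted p = 0.0413, up to 0.147 in the 4 fits without 1 library in which the call was lost, bulk replicate 2 or 3 or sorted replicate 1 or 2). Of 23 growth factor and cytokine ligands 13 passed, 5 were higher and 1 was lower, with 8 higher without bulk replicate 3 and with 3 higher and 2 lower with FPKM as deposited. With a filter on every library 4 were higher and 1 was lower, and IL1B passed the main filter through bulk alone. IL1B, an inflammatory cytokine of myeloid cells, was at 6.49, 5.40 and 3.71 in bulk and 0.443, 0.173 and 0.558 in sorted cells (log2 difference 2.14, limma adjusted p = 0.000313). IL34, which binds the same receptor as CSF1, was at 15.5, 14.9 and 9.13 in bulk and 24.8, 19.2 and 24.5 in sorted cells (log2 difference -0.78, limma adjusted p = 0.0219, up to 0.0863 without sorted replicate 1 or 3), while CSF1 itself missed the threshold (log2 difference 0.43, limma adjusted p = 0.134). Of 16 growth factor receptors 14 passed the filter and 8 were higher, among them IGF1R by 0.82 and TGFBR1 by 0.68. That count was 3 without bulk replicate 1, 4 without sorted replicate 1 and 1 with FPKM as deposited. Of 13 complement genes 3 were higher and none lower, against 3 and 3 with FPKM as deposited. No complement gene was called when 1 scaled FPKM was required in every library, since members can pass the main filter through bulk alone. C3AR1, the receptor of the C3a fragment, was higher by 3.46, while C3 itself was at 314, 229 and 259 in bulk and 258, 332 and 316 in sorted cells (log2 difference -0.18, limma adjusted p = 0.394).

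The cell label of the sorted libraries was checked against renal epithelial markers. EPCAM, an epithelial adhesion molecule, was at 141, 90.0 and 182 in bulk and 168, 150.4 and 126 in sorted cells (log2 difference -0.15, limma adjusted p = 0.650), and the cadherins CDH1 and CDH16 and the factor PAX8 had log2 differences of -0.31, -0.30 and 0.29, with none past the test. Of 22 in the list 20 passed the filter, 2 were higher and 8 lower, with a median of -0.24. CLDN4, a tight junction protein, was at 144, 164 and 114 in bulk and 542, 349 and 442 in sorted cells (log2 difference -1.64, standard error 0.20, limma adjusted p = 0.00123), and PAX2, a kidney factor, was higher in bulk by 0.73. EPCAM overlapped between the groups, and CLDN4 did not. The split of the list was 6 higher and 5 lower without bulk replicate 2, 1 and 3 without bulk replicate 1 or sorted replicate 1, 2 and 3 without sorted replicate 2, 1 and 4 without sorted replicate 3, and 1 and 5 without bulk replicate 3. It was 0 and 9 with FPKM as deposited and 2 and 2 with quantile normalization.

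Ribosomal protein genes were lower in bulk as a group. All 21 passed the filter, 17 were lower and none was higher, with a median of -0.65, against 17.1% of all genes lower. RPLP0, a stalk protein of the large subunit, was at 524, 582 and 466 in bulk and 1008, 777 and 906 in sorted cells (log2 difference -0.77, standard error 0.15, limma adjusted p = 0.00808), with no overlap, and RPL3 was lower (log2 difference -0.74). RPS6, the small subunit protein phosphorylated below mTORC1, was at 285, 273 and 322 in bulk and 429, 403 and 360.4 in sorted cells (log2 difference -0.44, limma adjusted p = 0.0294, up to 0.105 without bulk replicate 1 or 2 or sorted replicate 1 or 2). RPS14 was lower too (log2 difference -0.91, limma adjusted p = 0.0285), and its call was lost without bulk replicate 1 or 3 or sorted replicate 1 or 3 (adjusted p up to 0.11). The count of lower members was 10 without bulk replicate 1, 11 without sorted replicate 1 and 9 with quantile normalization. In sh-NC tumors none was called. Many ribosomal protein genes have processed copies in the genome, and how shared reads were counted is not given in the sources used here.

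Hypoxia and glycolysis genes were lower in bulk in 7 of 14 cases and higher in none, with a median of -0.65. Among all genes tested, 17.1% were lower and 21.1% higher. ADM, a vessel-widening peptide induced by low oxygen, was at 25.9, 17.5 and 28.3 in bulk and 52.6, 79.0 and 52.2 in sorted cells (log2 difference -1.32, standard error 0.22, limma adjusted p = 0.00509), and the glucose transporter SLC2A1 was lower (log2 difference -0.75, limma adjusted p = 0.0172) and lost this call without bulk replicate 1 or sorted replicate 2. The count was 4 without bulk replicate 1 or sorted replicate 2 and with quantile normalization. VEGFA, the main vessel growth factor, was at 37.9, 31.0 and 47.6 in bulk and 45.5, 58.1 and 58.7 in sorted cells (log2 difference -0.48, limma adjusted p = 0.0640). Of 18 cell cycle genes all passed the filter, with 3 higher and 3 lower. Beside 21.1% and 17.1% of all genes tested, this list did not stand out. MKI67, the Ki-67 antigen of dividing cells, was higher by 1.15 (limma adjusted p = 0.0107), CCNB1, a cyclin of mitosis, was lower (log2 difference -0.78, limma adjusted p = 0.0106), and TOP2A missed the threshold (log2 difference -0.17, limma adjusted p = 0.371). Without bulk replicate 1 the count was 1 in each direction, and without bulk replicate 3 it was 1 higher and 6 lower, and without sorted replicate 1 or 3 it was 1 higher and 2 lower. ADM did not overlap between the groups and VEGFA did. Among nuclear-retained RNAs, NEAT1 was at 85.1, 64.3 and 64.4 in bulk and 38.6, 37.6 and 31.6 in sorted cells (log2 difference 0.96, limma adjusted p = 0.00352), and MALAT1 missed the threshold (log2 difference 0.71, limma adjusted p = 0.0583).

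CD276, the target of the knockdown (chr9:58524300-58555033), was higher in bulk knockdown tumors than in their sorted cells. It was at 22.3, 17.8 and 24.4 scaled FPKM in bulk and 7.29, 14.0 and 11.5 in sorted cells, without overlap (log2 difference 0.95, standard error 0.22, limma adjusted p = 0.0151). TSC2, the gene the line lacks, was at 4.09, 4.04 and 4.29 in bulk and 1.66, 2.27 and 1.91 in sorted cells (log2 difference 0.81, limma adjusted p = 0.00295, a gene chosen after its values were seen), and since the lost part of the gene is not given, its level is no check of the genotype. In sh-NC tumors CD276 was at 20.8, 23.2 and 23.5 in bulk and 34.0, 20.0 and 17.3 in sorted cells, which overlapped (log2 difference -0.02, limma adjusted p = 0.965). The CD276 call was lost without bulk replicate 1 (adjusted p = 0.0514) and with FPKM as deposited (log2 difference 0.67, limma adjusted p = 0.0526). The difference between conditions was 0.97 and missed the threshold (limma adjusted p = 0.276).

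The same bulk minus sorted contrast in sh-NC tumors called 1924 of 11418 genes (16.9%), of which 1184 (10.4%) were higher and 740 (6.48%) lower in bulk. That count ran from 685 without bulk sh-NC replicate 2 to 4440 without sorted sh-NC replicate 1, and it was 912 and 930 without bulk replicates 1 and 3 and 730 without sorted replicate 2. Across all 4 groups, 56 of 12062 genes (0.464%) had a bulk minus sorted difference that differed between sh-B7-H3 (1) and sh-NC at a limma adjusted p under 0.05, with 26 higher in the knockdown and 30 lower, and 1767 genes had an unadjusted p under 0.05. The count was 103 without bulk sh-B7-H3 (1) replicate 3. It was 29, 37 and 15 without bulk sh-NC replicates 1, 2 and 3, 23, 15 and 20 without sorted sh-NC replicates 1, 2 and 3, and 24, 27 and 19 without sorted sh-B7-H3 (1) replicates 1, 2 and 3.

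The 5 genes most raised in that test were C1QTNF3, THBS2, CTHRC1, CDH11 and PALLD, which encode a secreted C1q-like protein, the matricellular thrombospondin 2, a collagen triple helix repeat protein, a cadherin of mesenchymal cells and an actin-binding protein. CDH11 was at 12.5, 7.49 and 6.42 in bulk and 0.330, 0.221 and 0.356 in sorted knockdown libraries, and at 0.825, 1.80 and 1.19 in bulk and 0.393, 0.314 and 0.417 in sorted sh-NC libraries (difference between conditions 2.16, limma adjusted p = 0.0102). THBS2 was at 37.5, 29.2 and 18.3 in bulk and 1.26, 0.839 and 1.87 in sorted cells with the knockdown, and at 5.54, 9.66 and 4.81 in bulk and 1.66, 1.46 and 2.67 in sorted cells with sh-NC (difference between conditions 2.27, limma adjusted p = 0.0440). Bulk knockdown tumors thus held the highest levels of both genes and sorted cells of both conditions the lowest. Both were taken for a called interaction, so this order was largely fixed by the choice and is no added evidence. CDH11 was under 1 scaled FPKM in every sorted library and passed the filter through bulk alone. PALLD differed in another way, since it was at 15.7, 16.1 and 16.7 in bulk and 2.15, 3.50 and 2.89 in sorted knockdown cells, but at 10.6, 8.69 and 7.56 in bulk and 10.3, 8.87 and 5.31 in sorted cells with sh-NC, where the groups overlapped. The call held in all 12 fits without 1 library for CDH11 and in 10 for PALLD, but in 2 for THBS2 and for CTHRC1 and in 5 for C1QTNF3.

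**Figure D4:**
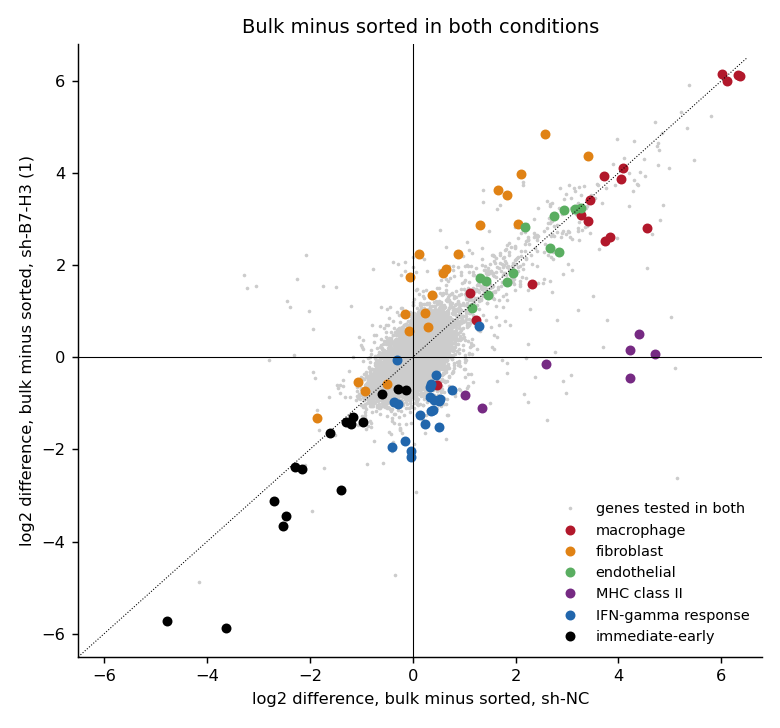
Bulk minus sorted log2 difference with sh-NC on the horizontal axis and with sh-B7-H3 (1) on the vertical axis for the 11172 genes tested in both, with selected lists in color and a dotted line where both are equal. Macrophage and endothelial genes lie far to the upper right, immediate-early genes to the lower left, and MHC class II genes well below the line.

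The 5 most reduced genes in that test were H2-AA, CD74, H2-DMA, H2-EB1 and H2-AB1, all of MHC class II. Of the other lists, 3 of 6 tested mast cell, 3 of 7 neutrophil, 1 of 7 monocyte, 3 of 21 fibroblast, 1 of 16 immediate-early and 1 of 12 checkpoint ligand genes were called, and the mast cell, neutrophil and monocyte genes among them were above 1 scaled FPKM in all bulk sh-NC libraries and in no sorted library. Those not taken in by the rule for named genes are named after their values were seen. The mast cell tryptase TPSB2 was at 2.97, 3.54 and 5.77 in bulk sh-NC tumors and 0.0494, 0.400 and 0 in bulk knockdown tumors, with 0.0286, 0 and 0.124 in sorted sh-NC and 0, 0.0961 and 0 in sorted knockdown cells (difference between conditions -2.10, limma adjusted p = 0.00854). The carboxypeptidase CPA3 was at 1.50, 1.63 and 2.21 in bulk sh-NC and 0.0349, 0.188 and 0 in bulk knockdown tumors (difference -1.30, limma adjusted p = 0.00854) and the chymase CMA1 at 1.72, 2.25 and 3.33 in bulk sh-NC and 0.0493, 0.310 and 0.0631 in bulk knockdown tumors (difference -1.55, limma adjusted p = 0.0166). All bulk sh-NC libraries lay above all bulk knockdown libraries for these 3 genes. The same held for the neutrophil receptors TREM1, CLEC4D and CLEC4E (differences -0.88, -0.96 and -0.87) and for the chitinase-like protein CHIL3 of the monocyte list (-1.47). All these genes were described for a called interaction and could pass the filter through bulk sh-NC alone. Their separation was thus largely fixed by the choice and is no added evidence. CLEC4D was at 2.51, 2.76 and 3.51 in bulk sh-NC and 1.04, 0.886 and 1.04 in bulk knockdown tumors. The fibroblast genes went the other way, with the matrix protein POSTN at 40.1, 71.6 and 45.9 in bulk sh-NC and 171, 143 and 129 in bulk knockdown tumors (difference 1.98, limma adjusted p = 0.0181), the collagen chain COL5A2 (1.69) and the collagen crosslinker LOX (1.79). NECTIN2, a ligand of T-cell and natural killer cell receptors, differed by -0.79. MS4A2, a chain of the IgE receptor, and KIT, the receptor for stem cell factor, were not called in the knockdown contrast (log2 differences 0.61 and -0.07).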

How the data were processed

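RNA of bulk tumors and of sorted tumor cells was sequenced from oligo-dT-selected libraries. The authors deposited FPKM values per gene and library, in a table named for gene counts whose values have decimals, on build mm10 per the submitters' processing notes. The methods name the VIPER pipeline, and the aligner, counter and annotation are not given in the sources used here. For library preparation the methods give a KAPA kit and the labels a stranded Illumina kit. The methods name both an RNeasy Micro and an RNeasy Mini kit without assigning them to fractions, so kit, dissociation and fraction cannot be told apart. A further deposited table with log2 values of fewer genes and the 3 sorted sh-B7-H3 (2) libraries entered no comparison, apart from the scaling and the fit of all groups.

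From 24917 entries, 26 with symbols turned into dates were dropped. Each library was rescaled by its median ratio to the geometric mean of all 15 libraries, taken over the 9872 genes at 1 FPKM or above in all of them, and log2(value + 1) was used. Genes with at least 1 scaled FPKM in 3 libraries of a fit were tested in R 4.3.3 with limma 3.58.1, fitted with an intensity trend, 3 libraries against 3, with Benjamini-Hochberg adjustment over all genes tested. The difference between conditions was an interaction term over 4 groups. The fits were tested on simulated data. Scripts ran under Python 3.11.15, numpy 2.4.6, pandas 2.3.3, scipy 1.17.1 and matplotlib 3.10.9. Read totals are unknown, so no counting interval is given.

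The libraries, 41 gene lists and the rule for named genes were chosen with earlier results of these data known. Named genes were the 10 largest and 10 smallest differences among called genes whose groups did not overlap and whose mean reached 1 scaled FPKM, the defining genes and the extreme members of each list, the 5 largest and 5 smallest called interactions, CD276 and MIR6236. MYH1 and the other list members with a called interaction were named after their values were seen. Lists are described by counts and by the median over all members in the table, without a test, since members that pass the filter through bulk alone had to differ. Of 24891 genes, 24365 matched RefSeq symbols. Alternatives left FPKM as deposited, used factors of the fit's own libraries, quantile normalization or upper-quartile factors, a pseudocount of 0.1, no filter or a filter on every library, replicate blocks, all 5 groups, no trend, an absolute log2 difference above 1, and each library left out in turn. Some genes that the rule for named genes or the lists take in are not reported here.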

Additional observations from a re-analysis of the deposited data

Results flagged for a closer look

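The bulk minus sorted difference of 23 named genes differed between sh-B7-H3 (1) and sh-NC tumors, each by limma's interaction term at an adjusted p under 0.05. No cause was tested for any of them.

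Of MHC class II, the differences between conditions were -4.67 for CD74, -4.64 for H2-AA, -2.75 for H2-DMA, -4.05 for H2-AB1, -2.44 for H2-DMB2 and -3.9 for H2-EB1, on the log2 scale. In sh-NC tumors CD74 was at 152, 336 and 246 scaled FPKM in bulk and 22.3, 8.30 and 7.96 in sorted cells, while with the knockdown it was at 1470.3, 1552 and 471 in bulk and 1988, 1114 and 1223 in sorted cells. The calls held in 9 of 12 fits without 1 library for H2-AA, 7 for CD74, 5 for H2-AB1, 4 for H2-DMB2 and H2-DMA and 3 for H2-EB1, with adjusted p up to 0.131. Under the other alternatives H2-EB1 lost its call in 5 of 9, H2-DMB2 and H2-DMA in 3 of 9 and H2-AB1 in 2 of 10, while H2-AA and CD74 kept theirs in all 10.

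The mast cell genes differed by -1.3 for CPA3, -2.1 for TPSB2 and -1.55 for CMA1. Their calls were lost with a pseudocount of 0.1 and with all 5 groups in 1 fit, with adjusted p up to 0.258, and CMA1 was lost in 1 of 12 fits without 1 library. The neutrophil genes differed by -0.875 for TREM1, -0.961 for CLEC4D and -0.871 for CLEC4E, and CHIL3 of the monocyte list by -1.47, with calls held in 2, 5, 4 and 2 of 12 fits without 1 library, and all 4 were lost with a pseudocount of 0.1, a replicate block or all 5 groups.

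FOSB differed by -2.25, at 0.318, 0.411 and 0.503 in bulk and 74.9, 69.3 and 107 in sorted cells with the knockdown and at 1.34, 1.80 and 2.23 in bulk and 44.0, 34.7 and 24.1 in sorted cells with sh-NC, and its call held in all 12 fits without 1 library.

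The 5 largest differences between conditions were 2.31 for C1QTNF3, 2.27 for THBS2, 2.17 for CTHRC1, 2.16 for CDH11 and 2.02 for PALLD. CTHRC1 was at 5.07, 6.57 and 8.30 in bulk and 0.379, 0.459 and 1.30 in sorted knockdown libraries and at 1.22, 2.14 and 2.72 in bulk and 1.02, 2.22 and 2.94 in sorted cells with sh-NC, and its call held in 2 of 12 fits without 1 library. THBS2 and CTHRC1 lost their calls in 4 of 9 other alternatives and C1QTNF3 in 3 of 9. The call of CDH11 was lost with all 5 groups in 1 fit (adjusted p = 0.0617). Marker sums of fibroblasts moved beside these genes, at 2629, 2624 and 1730.5 in bulk and 828, 1031 and 1123 in sorted knockdown libraries and at 2325, 2400.5 and 2377 in bulk and 3655, 2021 and 1829 in sorted cells with sh-NC, and their part in the result was not tested.

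The fibroblast genes differed by 1.98 for POSTN, 1.69 for COL5A2 and 1.79 for LOX, with calls held in 10, 2 and 12 of 12 fits without 1 library. POSTN lost its call with all 5 groups in 1 fit (adjusted p = 0.128) and COL5A2 in 5 of 9 other alternatives. NECTIN2 differed by -0.788, a call held in 2 of 12 such fits and lost in 6 of 10 other alternatives.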

How the results depend on the processing

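The 4464 genes called between bulk and sorted sh-B7-H3 (1) libraries ranged from 2332 to 4278 when 1 library was left out, fell to 752 with an absolute log2 difference above 1, and stayed within 1.5 times under the other alternatives. The 1924 genes of the sh-NC contrast became 652 with FPKM as deposited, 1279 with a filter on every library, 3082 with all 5 groups in 1 fit and 545 above a log2 difference of 1, and ranged from 685 to 4440 without 1 library. The 56 genes of the difference between conditions became 128 with FPKM as deposited, 25 with a pseudocount of 0.1, 13 with a filter on every library and 36 with all 5 groups, and ranged from 15 to 103 without 1 library. The cause was not tested. With a replicate block the counts were 3225, 1998 and 24. Whether same-numbered bulk and sorted libraries came from the same tumor is not given. Their deviations from group means correlated at 0.133, -0.194 and -0.248 for sh-B7-H3 (1) and 0.297, -0.0806 and 0.132 for sh-NC, across 11677 genes. With 3 libraries per group this cannot exclude pairing. Adipocyte sums of both conditions ranked alike by number, as did skeletal muscle sums of sh-B7-H3 (1) but not of sh-NC. A filter on every library leaves out genes near 0 in sorted cells by construction, so 0 endothelial, 3 leukocyte and 6 macrophage markers were called higher under it, and without a filter 10 T-cell markers were. For 172 named genes under 16 alternatives, 108 values lost and 76 gained a call, and none of the called values changed sign. Of 103 named genes called, 81 kept the call without each of the 6 libraries and 22 lost it without at least 1. Only relative depths are known, and depth limits every value under the filter, including CD8A, GZMB and IFNG.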
